A study of Rattus norvegicus with 4 samples.

Results

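Transcripts of 7 complement components and regulators were followed in HSC-T6 cells, a rat line of hepatic stellate cells (the liver cells that become collagen-producing myofibroblasts), with and without ginsenoside Rk1, a saponin from heat-processed ginseng that the labels write as GRK1. The genes are C1r, C1s, C3, Cfb, Serping1, Cd55 and Cd59. They were chosen by symbol, and the 7 symbols stood on 8 of the 32883 rows of the count table, because Cfb is listed under 2 gene identifiers. The libraries were 2 from untreated cells and 2 from cells given Rk1, all of the same unmodified line. Dose, exposure time and vehicle are not stated. Every mean ± SD below is over n = 2 libraries. Separate cultures are not documented for the libraries of a group, so a p-value here reflects library-to-library spread alone, and that spread could be technical.

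Complement is a cascade of blood proteins that tags surfaces for uptake and can pierce membranes. In the classical pathway the recognition protein C1q carries the proteases C1r and C1s, and activated C1s cuts C4 and C2 to form an enzyme that cleaves C3. Factor B, made from Cfb, builds the C3-cleaving enzyme of the alternative pathway, the serpin C1 inhibitor (Serping1) inactivates C1r and C1s, and cells shield their own surface with CD55, which dissociates the C3-cleaving enzymes, and CD59, which blocks the terminal pore. Hepatocytes make most circulating complement, and macrophages and fibroblast-like cells make some of it locally.

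Of the 7 genes, C1r and C1s were abundant and Cd55 was present at a low level. C3, Cfb, Serping1 and Cd59 were at or near 0 counts. Cd55 was higher after Rk1 by 1.56-fold, while C1r and C1s did not pass the test. A gene was called when its Benjamini-Hochberg adjusted p in edgeR's quasi-likelihood test was under 0.05. The 3 genes C1r, C1s and Cd55 passed the filter on low counts, and 1 of them was called higher and 0 lower, against a background of 22.0% of all 12316 tested genes called (11.5% higher and 10.5% lower). With 3 genes tested, that share says nothing about the group as a whole. In bulk RNA, fewer cells of a type and less RNA per cell cannot be told apart.

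**Figure D1:**
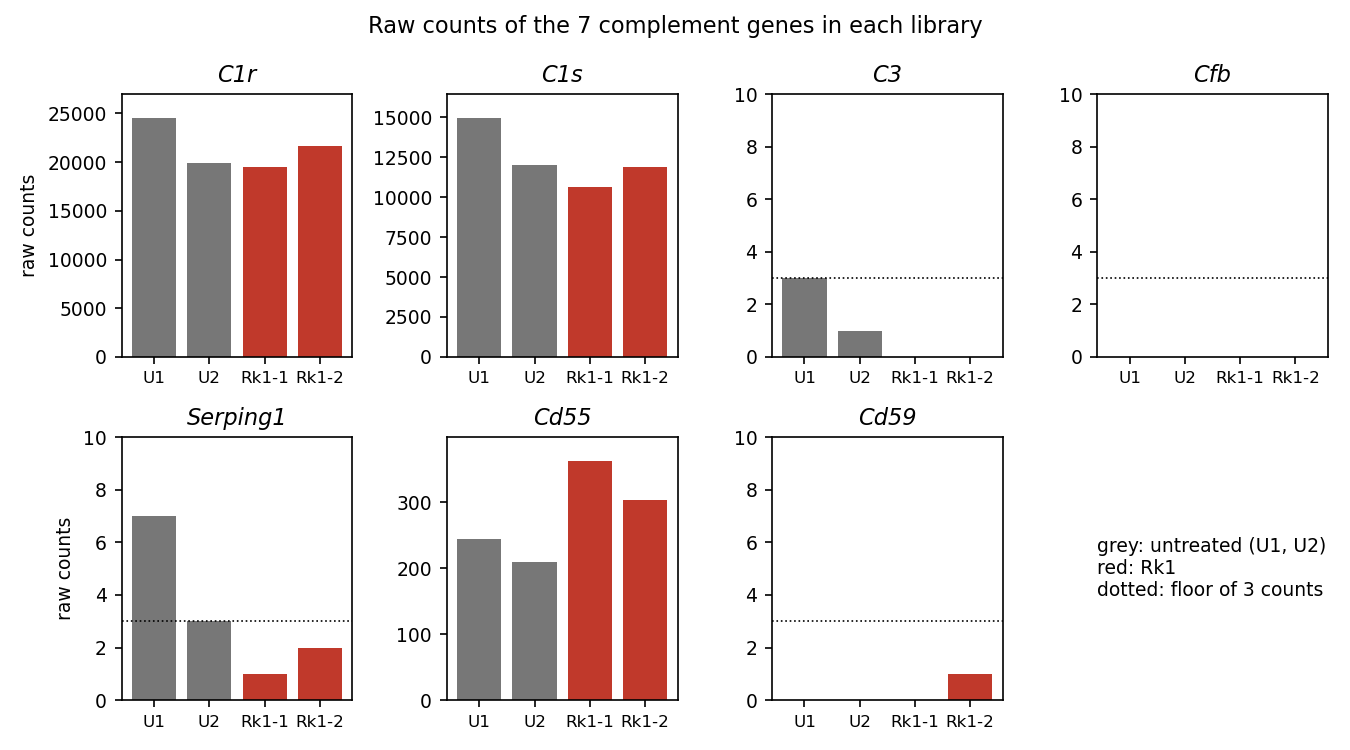
Raw counts (y axis, a separate linear scale in each panel) of the 7 genes in each library (x axis, U1 and U2 untreated in grey, Rk1-1 and Rk1-2 in red); the dotted line marks 3 counts. C1r and C1s lie between 10656 and 24536 counts, Cd55 is higher in both Rk1 libraries, and the tallest bar among C3, Cfb, Serping1 and Cd59 is 7 counts. Cfb is drawn once, since both of its rows hold 0 counts.

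Total counts per library ranged from 18008586 to 20430930. Among 12 stellate and mesenchymal marker genes, Vim stood at 1276 ± 4.3 and 1206 ± 42 CPM, and Lrat and Reln, markers of quiescent stellate cells, had 0 counts. Of 9 tested, 5 were called lower with Rk1 (Col1a1, Col3a1, Sparc, Acta2 and Gfap) and 0 higher, beside 10.5% of all tested genes called lower. Acta2 and Gfap were low, at 3.34 and 3.48 CPM untreated and 0.610 and 0.941 CPM with Rk1. Des leaned the other way, at 5.46 ± 0.57 and 7.05 ± 0.58 CPM, and was not called (adjusted p = 0.127, edgeR). The list summed to 21160 to 22260 CPM untreated and 14460 to 14520 CPM with Rk1, most of it from Col1a1, Col3a1 and Sparc. The part of this shift in the complement results was not tested. Markers of the usual sources of complement were at or near 0, apart from transferrin (Tf, 48.7 to 52.9 CPM). The hepatocyte list of 9 genes summed to 49.0 to 53.1 CPM, Tf included, with Alb at 2 counts or fewer and Apob, Ttr, Fga, Fgb and Hnf4a at 0. Of 8 macrophage genes, Ptprc, Adgre1, Marco, Cd163 and C1qa were at 0, and the list summed to 1.13 and 1.70 CPM untreated and 1.95 and 1.65 CPM with Rk1. The sums were 0.668 to 0.988 CPM for 5 endothelial genes, with Kdr, Stab2 and Lyve1 at 0, and 0.246 to 0.501 CPM for 4 cholangiocyte genes.

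The start-site sequences are shown for 3 genes the results turn on: Cd55, Cr1l (a related membrane regulator that also rose, described below) and the abundant C1r. By symbol, 3 of the 7 genes (C3, C1r and Cd55) matched the table of RefSeq start-site windows used here. The windows are the 250 bases before the annotated start, 5′ to 3′ on the gene's strand, in build GRCr8, and the windows are chr13:44438102-44438351 (minus strand) for Cd55, chr13:109188870-109189119 (minus strand) for Cr1l and chr4:159098763-159099012 (plus strand) for C1r. Capitals mark matches, on either strand, to the GC box GGGCGG, the hypoxia response core ACGTG or GCGTG, and the C/EBP-type word TTGCNNAA.
Cd55: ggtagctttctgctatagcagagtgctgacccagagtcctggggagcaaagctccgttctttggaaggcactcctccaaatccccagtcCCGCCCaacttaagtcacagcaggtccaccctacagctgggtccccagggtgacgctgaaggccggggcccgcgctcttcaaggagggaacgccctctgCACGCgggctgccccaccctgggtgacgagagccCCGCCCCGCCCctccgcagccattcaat
Cr1l: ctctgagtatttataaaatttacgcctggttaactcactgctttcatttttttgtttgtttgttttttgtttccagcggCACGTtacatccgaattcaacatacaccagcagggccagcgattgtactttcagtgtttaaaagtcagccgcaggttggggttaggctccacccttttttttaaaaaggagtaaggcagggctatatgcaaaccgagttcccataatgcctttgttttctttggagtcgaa
C1r: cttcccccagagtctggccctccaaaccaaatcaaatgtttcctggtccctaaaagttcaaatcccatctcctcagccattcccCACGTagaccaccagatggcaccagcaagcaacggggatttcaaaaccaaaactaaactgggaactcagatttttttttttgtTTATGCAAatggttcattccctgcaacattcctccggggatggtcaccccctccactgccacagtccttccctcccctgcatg
The Cd55 window held 3 GC boxes, 28 and 23 bases before the start (overlapping) and 161 bases before it, and had a GC content of 64.4%, against 41.2% for Cr1l and 49.6% for C1r. A GC box was found in 30.5% of 33469 windows of this length. Each of the 3 windows held 1 hypoxia core, a word present in 36.7% of all windows, so this is common. C1r alone of the 3 held the C/EBP-type word, which stood in 9.22% of windows. The word is not particular to C1r. Among further windows scanned, those of C3, C6 and Ptx3 held it as well, and those of C1qbp and C4b did not. The GAS word TTCNNNGAA (in 7.67% of windows), the ISRE-type word (3.41%), the kappaB-type word (1.08%) and the AP-1 word TGANTCA (6.34%) were not in the windows of Cd55, Cr1l and C1r. These matches describe letters only, and binding was not measured.

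The initiating proteases came first in level. C1r (ENSRNOG00000011796, chromosome 4, 157125998 to 157136829 in Rnor_6.0, plus strand) encodes the protease that activates itself and then C1s. It stood at 1209 and 1094 CPM (the count scaled to the size of its library) in the untreated libraries and at 1085 and 1188 CPM with Rk1. These values overlap. The log2 fold change, Rk1 over untreated, was -0.02 ± 0.06 (SE), with a 95% interval for the fold of 0.893 to 1.09 (adjusted p = 0.866, edgeR). Its sign was not stable, at 0.057 without untreated replicate 1 and 0.047 without Rk1 replicate 1.

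C1s (ENSRNOG00000011971, chromosome 4, 157143592 to 157155609, minus strand) encodes the protease that cuts C4 and C2. It stood at 737 and 659 CPM untreated and at 593 and 650.5 CPM with Rk1. The groups did not overlap, but untreated replicate 2 and Rk1 replicate 2 were close. The log2 fold change was -0.17 ± 0.07 and was not called (adjusted p = 0.115, unadjusted p = 0.0378, edgeR). Leaving out untreated replicate 2 brought it past the threshold (-0.25, adjusted p = 0.0459), and leaving out untreated replicate 1 gave -0.08.

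Per length, on the FPKM scale (CPM per kilobase of exon, which allows levels of different genes to be compared), C1r was at 416 ± 29 untreated and 410.3 ± 26.4 with Rk1, and ranked 179th of the 12316 tested genes by its mean over the libraries. C1s was at 240 ± 19 and 214 ± 14 FPKM and ranked 358th. Cd55, by contrast, was at 3.80 ± 0.12 and 5.94 ± 0.81 FPKM and ranked 9273rd. The other 4 genes lay at 0.183 FPKM or lower in every library.

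The proportion of the protease transcripts differed little between libraries of a group. The ratio of C1s to C1r counts, which does not depend on how libraries are scaled, was 0.610 and 0.603 in the untreated libraries and 0.547 and 0.547 with Rk1. It was thus lower in both treated libraries, with group means of 0.606 ± 0.0049 and 0.547 ± 0.00044, and the treated mean was 0.903 of the untreated mean. As a share of the summed counts of both genes, C1s made up 37.9% (95% Wilson interval 37.4 to 38.4) and 37.6% (37.1 to 38.1) untreated, and 35.4% (34.8 to 35.9) and 35.4% (34.9 to 35.9) with Rk1. These intervals cover counting error only. A 2-sided exact permutation test over the 4 libraries gave p = 0.333, the smallest value this test allows for 2 against 2, so it cannot pass the threshold whatever the ratio. The ratio was examined after the values were seen.

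**Figure D2:**
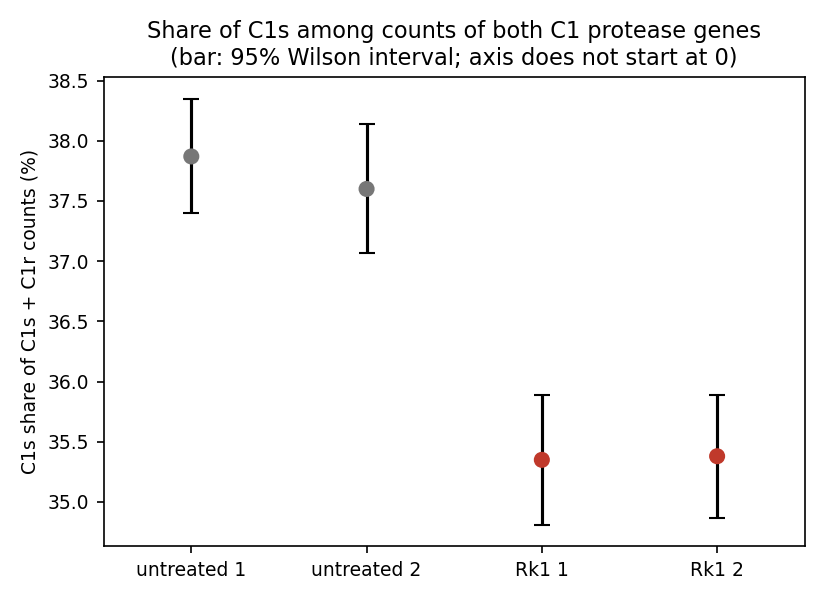
Share of C1s among the counts of C1s and C1r together (y axis, percent, not starting at 0) in each library (x axis); bars are 95% Wilson intervals. The untreated libraries are at 37.9% and 37.6% and both Rk1 libraries at 35.4%, with no overlap of the intervals between groups.

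The recognition subunits and the substrates of these proteases were scarce. C1qa, C1qb and C1qc, the chains of C1q, had 0 counts in all 4 libraries, where 3 counts, the limit that a count of 0 allows, correspond to 0.148 to 0.167 CPM. C2, a substrate of C1s, had 7 and 3 counts untreated and 2 and 10 with Rk1. Of the genes named for the other substrate, C4, C4a had 4 and 3 counts untreated and 5 and 1 with Rk1, too few to test. C4b was low and fell with Rk1, from 7.19 and 4.95 CPM to 1.34 and 2.30 CPM. The groups did not overlap and the change was 3.33-fold (log2 fold change -1.74 ± 0.30, adjusted p = 0.00656, edgeR). The annotated gene LOC103689965 (chromosome 20, 4302347 to 4508214, minus strand) covers all of C4b (4302344 to 4316715) but its last bases, on the same strand. Its counts of 60 and 23 untreated and 9 and 17 with Rk1 were not called (adjusted p = 0.0584), and reads that lie in both genes could have been dropped or assigned to either.

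C3 and factor B, on which all pathways and the alternative pathway turn, were not measurable. C3 (ENSRNOG00000046834, chromosome 9, 9721105 to 9747167, plus strand) had 3 and 1 counts untreated and 0 and 0 with Rk1. All of these are at or under the limit of 3 counts, so no fold is given and this depth could not resolve a difference. Cfb was listed at 0 counts in all libraries under both identifiers. The first (ENSRNOG00000051158, chromosome 20, 4536212 to 4542073, minus strand) lies wholly inside the second (ENSRNOG00000000419, 4536203 to 4561066, minus strand), which also covers most of C2. How reads lying in more than 1 gene were counted is not given in the sources used here. Reads lying in both Cfb entries could have been left out, so the 0 covers only reads assigned to 1 entry.

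Serping1 (ENSRNOG00000007457, chromosome 3, 72161189 to 72171078, minus strand), which encodes the inhibitor of C1r and C1s, had 7 and 3 counts untreated and 1 and 2 with Rk1. In CPM these are 0.345, 0.165, 0.0557 and 0.110. The untreated counts were higher, but the summed ratio of untreated to Rk1 of 3.13 had an exact 95% counting interval of 0.807 to 17.7. The gene did not pass the filter, and without a filter edgeR gave an adjusted p of 0.320. Across the libraries C1r and C1s thus stood at 204 to 436 FPKM and the gene of their inhibitor at 0.0295 to 0.183 FPKM.

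Of the membrane regulators that act on the C3-cleaving enzymes, Cd55 and Cr1l rose. Cd55 (ENSRNOG00000003927, chromosome 13, 47126741 to 47154292, minus strand) went from 244 and 209 counts to 362 and 303, or from 12.0 and 11.5 CPM to 20.1 and 16.6 CPM. Both Rk1 libraries lay above both untreated ones. The change was 1.56-fold (95% interval 1.29 to 1.89, log2 fold change 0.64 ± 0.12, adjusted p = 0.00809, edgeR), and it was called in all 11 alternatives tried, with adjusted p from 0.00104 to 0.0422 and log2 fold changes from 0.50 to 0.78. Cr1l, the rodent regulator also known as Crry, which like CD55 limits C3 cleavage on the cell's own surface, rose from 92.6 and 88.3 CPM to 139.7 and 133 CPM (1.51-fold, 0.59 ± 0.05, adjusted p = 3.51e-04, edgeR). Per length, Cr1l was the more abundant of these regulators, at 43.3 ± 1.4 and 65.3 ± 2.3 FPKM. Cd46, the remaining membrane regulator of this kind, which in rodents is made mainly in testis, stood at 2.36 and 1.81 CPM untreated and 3.23 and 2.47 CPM with Rk1 and was not called (0.44 ± 0.25, adjusted p = 0.244).

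Cd59 (ENSRNOG00000042821, chromosome 3, 94010475 to 94028621, plus strand), which encodes the membrane inhibitor of the terminal pore, was listed at 0, 0, 0 and 1 counts. No other annotated gene in the table overlaps it. CD55 and CD59 are both held in the membrane by a glycosylphosphatidylinositol (GPI) anchor. Of 29 genes of GPI anchor synthesis and transfer, 26 were tested, of which 4 were called higher and 1 lower (19.2%, near the background of 22.0%), with a median log2 fold change of 0.10 against 0.00 for all tested genes. Gpaa1 (0.25 ± 0.05), Pigt (0.20 ± 0.04) and Pigq (0.23 ± 0.05) rose, as did Pigv (0.50 ± 0.14), and Piga, a subunit of the enzyme of the first step, fell (-0.40 ± 0.09). Gpaa1 and Pigt belong to the complex that attaches the anchor to proteins. The number called higher was 2 by DESeq2, and 1 when either untreated library or Rk1 replicate 1 was left out. Piga was not called by DESeq2, nor when untreated replicate 1 or either Rk1 library was left out. Pigm, which encodes an enzyme of anchor synthesis, was also listed at 0 counts in all libraries. Whether the counts of Pigm and Cd59 reflect silent genes, annotation or read assignment was not tested.

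Other complement genes gave a mixed picture beyond C4b and Cr1l. Of 54 symbols on a list of further components, receptors, lectins and regulators, 49 were in the table, 17 of them at 0 in every library, and 15 passed the filter on low counts. Of these 15, 1 was called higher (Cr1l) and 5 lower, which is 40% against the background of 22.0% (11.5% higher and 10.5% lower), with a median log2 fold change of -0.15 against 0.00 for all tested genes. The 6 calls stood in every alternative in which the gene could be tested.

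The largest fall among these 5 was that of C6, a component of the terminal pore, from 4.58 and 4.23 CPM to 0.891 and 0.878 CPM (4.96-fold, -2.31 ± 0.22, adjusted p = 5.6e-04, edgeR). The raw counts behind it were 93 and 77 against 16 and 16. Of the partner components of the pore, C8g was tested and not called (-0.24 ± 0.40, adjusted p = 0.721), while C5, C7, C8a, C8b and C9 had too few counts to test. C8a and C8b were at 0, C7 and C9 had at most 4 counts in a library, and C5 had at most 3. Ptx3, a pentraxin that binds C1q, fell from 33.1 and 32.4 CPM to 10.2 and 10.9 CPM (3.09-fold, -1.63 ± 0.08, adjusted p = 4.06e-05). Clu, encoding clusterin, a secreted chaperone that also restrains the terminal pore, fell from 385 and 377 CPM to 284 and 281 CPM (1.35-fold, adjusted p = 5.29e-04). C1qbp, a mostly mitochondrial protein first isolated by its binding to C1q, fell 1.26-fold (-0.34 ± 0.05, adjusted p = 0.00264). In each of these 4 genes both Rk1 libraries lay below both untreated ones.

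**Figure D3:**
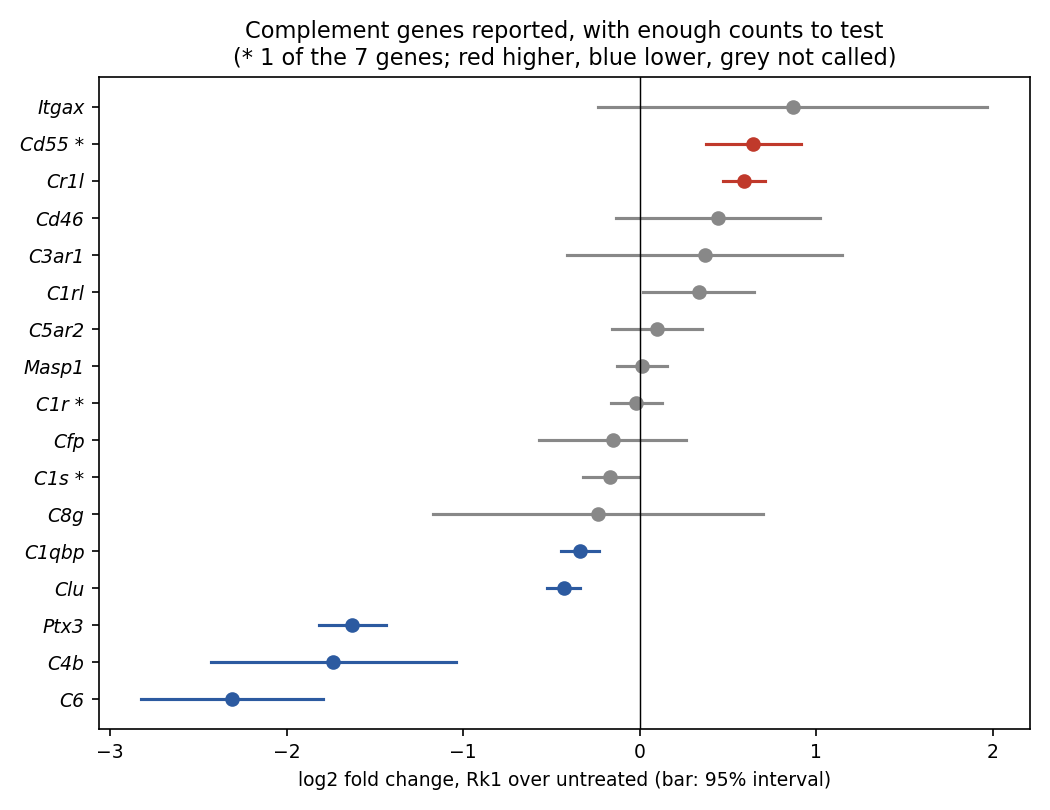
Log2 fold change, Rk1 over untreated (x axis), of the complement genes reported here that had enough counts to test, with 95% intervals that are not adjusted for multiple tests; asterisks mark C1r, C1s and Cd55, red and blue the called genes. Cd55 and Cr1l lie to the right of 0 with intervals clear of it, C1r and Masp1 lie at 0, and C6, C4b, Ptx3, Clu and C1qbp lie to the left.

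Masp1, the lectin-pathway relative of C1r and C1s, was abundant and like C1r close to 0 in its change, at 226 ± 17 and 228 ± 7.4 CPM (log2 fold change 0.01 ± 0.06, 95% interval for the fold 0.915 to 1.11). C1rl, a C1r-like protease gene whose end lies 2551 bases before C1r on the same strand, stood at 12.9 and 11.3 CPM untreated and 13.5 and 16.95 CPM with Rk1 and was not called (0.33 ± 0.13, adjusted p = 0.122). The gene of properdin, Cfp (-0.15 ± 0.18), which stabilises the alternative-pathway enzyme, and the receptor genes C5ar2 (0.10 ± 0.11), C3ar1 (0.37 ± 0.33) and Itgax (0.87 ± 0.47), were not called either.

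**Figure D4:**
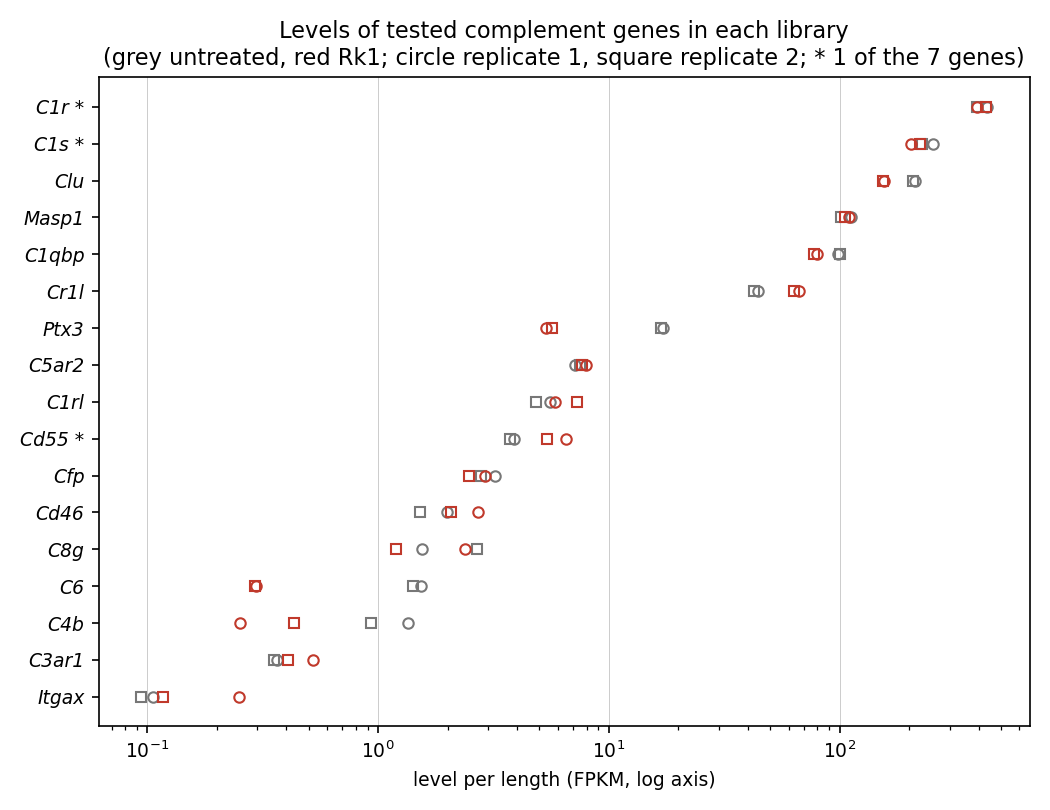
Level per length (x axis, FPKM, log scale) of the same complement genes in each library; grey untreated, red Rk1, circles replicate 1, squares replicate 2, asterisks C1r, C1s and Cd55. C1r and C1s lie at the top, Cd55 at 3.71 to 6.51 FPKM, and C6, C4b and Ptx3 lie to the left in both Rk1 libraries.

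Complement genes are known to respond to interferons, interleukin-6 family cytokines, interleukin-1, tumour necrosis factor and glucocorticoids. Of 25 genes for the receptors, kinases and transcription factors of these routes, all 25 were tested, 8 were called higher and 6 lower (56% against the background of 22.0%), with a median log2 fold change of 0.07. On the interferon route the calls went both ways. Irf1 was among the genes that fell (-0.34 ± 0.06, adjusted p = 0.00902, edgeR). Ifnar1 (0.22 ± 0.06, adjusted p = 0.0371, edgeR) and Tyk2 (0.19 ± 0.05, adjusted p = 0.0352, edgeR) rose, but neither rise was called by DESeq2. Cebpd, a factor of the acute phase response, fell by 0.60 ± 0.11 on the log2 scale. The interleukin-1 receptor gene Il1r1 (0.35 ± 0.05), the tumour necrosis factor receptor gene Tnfrsf1a (0.22 ± 0.04), the interleukin-6 receptor gene Il6r (0.48 ± 0.10) and the glucocorticoid receptor gene Nr3c1 (0.33 ± 0.06) rose. Receptors of the interleukin-6 family did not all rise. Osmr fell (-0.29 ± 0.06, adjusted p = 0.0158, edgeR), and Il6st (-0.09 ± 0.05) and Lifr (-0.17 ± 0.08) were not called. Stat3, the main factor downstream of interleukin-6, was at 685 ± 40 and 693 ± 22 CPM and was not called (0.02 ± 0.05, adjusted p = 0.861). The calls of Irf1, Cebpd, Il1r1, Il6r and Nr3c1 stood in all 11 alternatives. By DESeq2 4 genes of the list rose, and 5, 3 and 3 rose without untreated replicate 1, untreated replicate 2 and Rk1 replicate 1, while 3 fell without untreated replicate 1 or Rk1 replicate 1. The call of Tnfrsf1a was lost without untreated replicate 2 or Rk1 replicate 1.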

How the data were processed

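RNA of 4 HSC-T6 libraries (2 untreated, 2 with Rk1) was sequenced from VAHTS Universal V6 libraries, per the labels. The submitters' processing notes name HISAT2 and HTSeq; their versions, the strand setting and how shared reads were treated are not given in the sources. The authors deposited raw counts per Ensembl gene, with symbols, exon lengths and Rnor_6.0 positions per the file headers. Without a known strand setting reads of overlapping genes cannot be told apart.

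Of 32883 genes, 12316 passed filterByExpr of edgeR 4.0.16 (minimum count 10, minimum total 15). TMM factors were 0.994 to 1.01, and CPM and FPKM were computed from the scaled totals of the genes kept and the deposited exon lengths. Group was the only term of the edgeR model, tested by quasi-likelihood (2-sided) with 2 residual degrees of freedom and Benjamini-Hochberg adjustment over all genes tested. SE is the log2 fold change divided by the square root of F, and intervals use the moderated degrees of freedom. The limit for a count of 0 is 3 counts per library. Within a group, libraries were distinct: chi-square over degrees of freedom was 4.39 (untreated) and 4.49 (Rk1), above the sampling noise of a repeated library. On simulated data for this comparison (12316 genes, 50 changed at each fold), 44% were recovered at 1.25-fold, 86% at 1.5-fold, 92% at 2-fold and 100% at 3-fold, with 5 false calls among 166. These came from genes with at least 100 counts on average, and lower counts were not simulated.

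The 7 genes and the other lists were chosen with earlier results of these data known. Named genes were the 7, the called genes of each list in order of adjusted p, at most 6, and 2 genes nearest in pattern to each called gene of the 7. Other names were chosen after their values were seen, as were the motifs and the ratio of C1s to C1r. Alternatives were DESeq2 1.42.0, limma-voom (limma 3.58.1), robust dispersions, RLE scaling, no filter, at least 1 CPM in all libraries, a replicate block, and each library left out, which assumes that the remaining library varies as the other group does. Some genes counted in the lists are not reported here by name.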

Additional observations from a re-analysis of the deposited data

How the results depend on the processing

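By DESeq2, 859 genes of the whole table were higher and 853 lower, against 1422 and 1289 in edgeR's test. Leaving out a library gave 824 (without untreated replicate 2) to 1110 higher and 859 (without Rk1 replicate 1) to 936 lower. Among the 7 genes 1 was higher in every alternative, and 0 to 1 were lower when a library was left out, the 1 being C1s without untreated replicate 2. The log2 fold change of C1r ran from -0.096 to 0.057 over the libraries left out, with 0.057 without untreated replicate 1 and 0.047 without Rk1 replicate 1. Of the inducing genes, 4 were higher by DESeq2, and with a library left out 3 to 6 were higher and 3 to 6 lower. Of the GPI anchor genes, 2 were higher and 0 lower by DESeq2, and with a library left out 1 to 3 were higher and 0 to 1 lower. The other complement genes kept 1 higher and 4 to 5 lower, C6 not being testable at 1 CPM in all libraries. The ratio of C1s to C1r, Rk1 over untreated, ran from 0.8975 to 0.908 with a library left out. The cause of these shifts was not tested. Replicate numbers are shared between groups by name only: the deviations of same-numbered libraries correlated at 0.0801 over genes, and with the replicate block 1676 genes were higher and 1538 lower, with Cd55 at 0.64 (adjusted p = 0.00538) and no call among the 7 genes changed. C3, Cfb, Serping1 and Cd59 had too few counts for a difference to be resolved, and the part of depth, annotation and read assignment in those counts was not tested.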

Other observations

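The C1 protease genes lie beside a gene named in the title of the series. On chromosome 4 of Rnor_6.0, 26185 bases separate C1s (minus strand) from Lpcat3 (plus strand), which encodes an acyltransferase of phospholipids, and C1r and C1s are 6762 bases apart with their 3′ ends facing. Lpcat3 rose from 192 and 191 CPM to 286.5 and 289 CPM (log2 fold change 0.59 ± 0.04, adjusted p = 1.43e-04, edgeR), while C1s (-0.17 ± 0.07) and C1r (-0.02 ± 0.06) were not called.

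Over the 4 libraries, the genes with centred log2 CPM nearest to those of Cd55 were Slc35e4 (Euclidean distance 0.0607, log2 fold change 0.58) and Tpi1, a glycolytic enzyme (0.0608, 0.70). With 4 libraries such likeness is a description only.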
